A study of Mus musculus with 16 samples.

Results

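Transcripts of 9 genes that break down phenylalanine, tyrosine and tryptophan were measured in primary mouse hepatocytes given SQ1 or pravastatin and in untreated control hepatocytes. The genes were Tat, Hpd, Hgd, Gstz1 and Fah of tyrosine breakdown and Tdo2, Kmo, Kynu and Haao of the kynurenine route. They were chosen by their place in these pathways and found on the array through the RefSeq accession that each probe carries. They make up 9 of the 20659 genes named on the array, and 11 of its 39429 probes. All 9 passed the filter on dim probes and stand among the 15053 genes tested.

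Treated and untreated RNA were hybridized together, in different dyes, on 16 arrays, of which 8 carried SQ1 and 8 pravastatin samples. The SQ1 cells had 100 µM SQ1 and the pravastatin cells 30 µM pravastatin, added 48 h after plating and left on for 48 h. SQ1 (squalestatin 1) blocks squalene synthase, and pravastatin, a statin, acts at an earlier step of cholesterol synthesis. Squalestatins act at far lower concentrations than the one given for SQ1, whose unit is therefore uncertain, and the doses cannot be matched. Hepatocytes of all groups came from male C57Bl/J mice and were kept in Williams Medium E, and treated and control cells differed by the drug alone per the labels. Treated RNA was labelled with Alexa 647 in replicates 1 to 4 and with Alexa 555 in replicates 5 to 8 of each drug. The series counts 8 controls, and the same control numbers recur in both drug sets, so control cultures were probably shared by the drugs. Nothing states that the cultures came from separate animals, so the p-values measure the spread between these arrays, which may be in part technical.

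The liver is the main site of aromatic amino acid breakdown, and most of these enzymes are typical of the differentiated hepatocyte. Tyrosine, which is made from phenylalanine, is taken apart by Tat (tyrosine aminotransferase), Hpd (4-hydroxyphenylpyruvate dioxygenase), Hgd (homogentisate dioxygenase, the enzyme missing in alkaptonuria), Gstz1 (maleylacetoacetate isomerase) and Fah (fumarylacetoacetate hydrolase, the enzyme missing in hereditary tyrosinaemia). Tryptophan is opened by Tdo2 (tryptophan dioxygenase), and Kmo (kynurenine monooxygenase), Kynu (kynureninase) and Haao (3-hydroxyanthranilate dioxygenase) lead on towards quinolinate and NAD.

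Promoter windows of the genes with the 4 largest pravastatin responses are shown, because these genes fell together with that drug and their starts can be compared by eye. Each window runs from 250 bases before to 50 bases after the RefSeq start of build GRCm38.p6, 5′ to 3′ on the gene's strand. Capitals mark matches, on either strand, to 8 motifs searched: the TATA box (TATAAA), the CCAAT box (CCAAT), the glucocorticoid receptor half-site (AGAACA), a C/EBP core (TTGCNNAA), the cAMP response element (TGACGTCA), an HNF4 core (CAAAGTCCA), an HNF1 palindrome and a sterol regulatory element (TCACNCCAC).
Tdo2, chr3:81975679-81975978, minus strand: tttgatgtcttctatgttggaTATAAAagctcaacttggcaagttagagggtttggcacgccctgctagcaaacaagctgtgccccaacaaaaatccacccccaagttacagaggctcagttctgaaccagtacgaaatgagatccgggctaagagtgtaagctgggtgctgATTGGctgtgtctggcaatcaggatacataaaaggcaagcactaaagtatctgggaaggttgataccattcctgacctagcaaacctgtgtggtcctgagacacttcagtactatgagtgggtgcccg
Hgd, chr16:37579903-37580202, plus strand: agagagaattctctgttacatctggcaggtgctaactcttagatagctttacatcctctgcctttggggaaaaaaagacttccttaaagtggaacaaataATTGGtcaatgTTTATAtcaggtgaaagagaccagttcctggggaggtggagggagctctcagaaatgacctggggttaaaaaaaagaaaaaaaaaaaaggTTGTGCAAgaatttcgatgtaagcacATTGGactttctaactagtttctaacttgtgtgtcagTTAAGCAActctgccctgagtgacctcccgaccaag
Hpd, chr5:123182674-123182973, minus strand: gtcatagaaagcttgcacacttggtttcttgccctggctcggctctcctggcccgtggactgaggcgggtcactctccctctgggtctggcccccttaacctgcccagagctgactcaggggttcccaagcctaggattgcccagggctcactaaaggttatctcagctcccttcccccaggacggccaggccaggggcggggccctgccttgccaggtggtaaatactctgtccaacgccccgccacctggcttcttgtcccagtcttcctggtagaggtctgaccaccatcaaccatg
Tat, chr8:109990186-109990485, plus strand: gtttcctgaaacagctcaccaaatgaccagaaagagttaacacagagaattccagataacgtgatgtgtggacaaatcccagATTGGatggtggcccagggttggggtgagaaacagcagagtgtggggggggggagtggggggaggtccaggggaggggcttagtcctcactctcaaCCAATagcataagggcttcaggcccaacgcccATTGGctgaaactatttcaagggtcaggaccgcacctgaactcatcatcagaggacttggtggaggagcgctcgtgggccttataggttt
The 4 windows differed in what they held. The Tat window had 3 CCAAT matches and the Hgd window had 2, together with a TATA match and 2 C/EBP matches. The Tdo2 window had 1 TATA match, at position -229 from the start, and 1 CCAAT match. The Hpd window had no match to any of the 8 motifs, and its GC content of 61.3% was above the 41% of Hgd and the median of 52.7% over all windows. Among the 9 windows found for 8 of the genes, 5 held CCAAT, against 37.4% of all 32851 mouse windows. TATAAA was in 2 of 9 windows against 13.6% of all, AGAACA in 2 (Kmo and Haao) against 19%, and TTGCNNAA in 1 against 10.8%. The other 4 motifs were in none of the 9 windows. They are rare over all windows, at 1.79% for the cAMP response element, 1.24% for the sterol regulatory element, 0.475% for the HNF4 core and 0.00913% for the HNF1 palindrome. A match is a stretch of letters, not a shown binding site.

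The treated channels and the cell type were checked against the labels. All 8 sterol-responsive genes examined passed the test upwards with both drugs, with a median log2 ratio over control of 1.05 in SQ1 cells and 0.43 in pravastatin cells (n = 8 arrays each). Of all tested genes 15.8% passed upwards with SQ1 and 30.9% with pravastatin. Of 15 hepatocyte marker genes, 13 were on the array and all 13 passed the filter on dim probes, as did 14 Kupffer cell and leukocyte markers, 12 stellate cell and fibroblast markers, 8 endothelial markers and 7 cholangiocyte markers, so that genes of other liver cells also gave signal. In such bulk RNA, fewer cells of a type and less RNA per cell cannot be told apart. Array ratios correlated with each other over genes at 0.213 to 0.868 within SQ1 and at 0.79 to 0.967 within pravastatin.

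In SQ1 cells 4 of the 9 genes fell (Tat, Hpd, Gstz1 and Haao), Kynu rose slightly, and 4 did not pass the test, with a median log2 ratio of -0.40. In pravastatin cells all 9 genes fell, by 1.77-fold (Kynu) to 8.9-fold (Tdo2), with a median log2 ratio of -1.93. Calls were made with limma on log2 ratios where the p-value, adjusted by Benjamini-Hochberg over the 15053 genes, was under 0.05. By this rule 32.3% of all tested genes were called with SQ1, 16.5% lower and 15.8% higher, around a median ratio of -0.0022. With pravastatin 66.7% were called, 35.8% lower and 30.9% higher, around a median of -0.011. The 5 tyrosine genes had a median ratio of -0.40 with SQ1 and -1.97 with pravastatin, and the 4 kynurenine genes one of -0.23 with SQ1 and -1.73 with pravastatin.

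**Figure D1:**
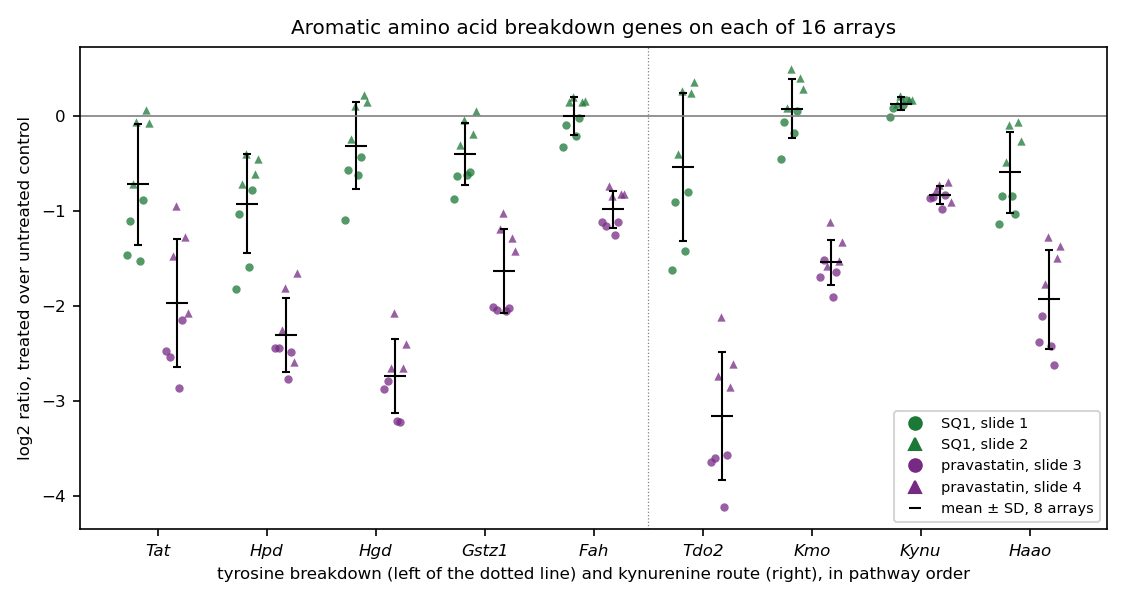
Log2 ratio of treated over control (y axis, dye effect removed) for each of the 9 genes on each array, SQ1 in green left of pravastatin in purple. Black bars give mean ± SD over 8 arrays, and the horizontal line at 0 stands for the control. All pravastatin values lie below 0, and SQ1 values lie on both sides of 0 for every gene but Hpd and Haao.

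Tat, whose product takes the amino group from tyrosine in the step that commits it to breakdown, ranged over the SQ1 arrays from -1.52 to 0.06 with a median of -0.80. Over the pravastatin arrays it ranged from -2.86 to -0.94 with a median of -2.10. It fell with both drugs, with log2 ratios (± standard error) of -0.72 ± 0.22 in SQ1 cells (adjusted p = 0.0176) and -1.97 ± 0.22 in pravastatin cells (adjusted p = 5.06e-07). The ranges of the drugs overlapped, and 7 of 8 SQ1 arrays were below the control. The SQ1 call depended on single arrays, since the adjusted p was 0.0555 without SQ1 replicate 1 and 0.0597 without SQ1 replicate 5.

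Hpd was the gene of the 9 with the largest SQ1 response. Its log2 ratio lay between -1.81 and -0.40 over the SQ1 arrays (median -0.74) and between -2.77 and -1.65 over the pravastatin arrays (median -2.44). It was below the control on all 8 arrays of each drug, and the drug ranges overlapped. The falls were 1.89-fold with SQ1 (log2 ratio -0.92 ± 0.15, adjusted p = 0.000225) and 4.94-fold with pravastatin (log2 ratio -2.30 ± 0.15, adjusted p = 1.25e-09). Only 0.312% of tested genes had a lower SQ1 ratio.

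Hgd, which opens the ring of homogentisate, had the largest difference between the drugs within tyrosine breakdown. Its SQ1 arrays ran from -1.09 to 0.22 with a median of -0.33, and its pravastatin arrays from -3.22 to -2.07 with a median of -2.72. No SQ1 array reached the pravastatin range. With SQ1 its log2 ratio was -0.31 (95% interval -0.61 to -0.01), which did not pass after adjustment (adjusted p = 0.104). It fell 6.65-fold with pravastatin (adjusted p = 6.76e-11), and 0.372% of tested genes had a lower ratio.

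Gstz1 and Fah, the last enzymes of the tyrosine route, had smaller pravastatin ratios than the other 3 genes of the route. Gstz1 had SQ1 ratios of -0.88 to 0.05 (median -0.45) and pravastatin ratios of -2.05 to -1.01 (median -1.72). It fell 1.32-fold with SQ1 (adjusted p = 0.0264) and 3.09-fold with pravastatin (adjusted p = 1.14e-08). The SQ1 call was lost without any of SQ1 replicates 1, 2, 5 or 6, at an adjusted p of 0.081, 0.0668, 0.0684 and 0.0673 in that order. Fah had SQ1 ratios of -0.32 to 0.20 (median 0.06), 4 arrays below the control and 4 above, and pravastatin ratios of -1.25 to -0.74 (median -0.97). Its mean SQ1 ratio was 0.0031 with a 95% interval of -0.14 to 0.15, and with pravastatin it fell 1.97-fold (adjusted p = 1.95e-09).

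In the kynurenine route, Tdo2 had the largest pravastatin response of the 9 genes. The SQ1 arrays ran from -1.62 to 0.37 with a median of -0.60, and the pravastatin arrays from -4.12 to -2.12 with a median of -3.21. The drug ranges did not overlap. With SQ1 its log2 ratio of -0.53 had a 95% interval of -1.04 to -0.03 and did not pass (adjusted p = 0.1), with 5 arrays below and 3 above the control. Tdo2 fell 8.9-fold with pravastatin (log2 ratio -3.15 ± 0.24, adjusted p = 6.63e-09), and 0.199% of tested genes had a lower ratio.

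Haao, which forms the precursor of quinolinate, ran from -1.13 to -0.06 over the SQ1 arrays (median -0.66) and from -2.62 to -1.27 over the pravastatin arrays (median -1.94). With its dye effect of -0.18 removed, all arrays of both drugs were below the control, without overlap between the drugs. With that effect left in, 1 of 8 SQ1 arrays was above the control. Haao fell 1.51-fold with SQ1 (adjusted p = 0.00865) and 3.81-fold with pravastatin (adjusted p = 1.6e-08). Kmo, the monooxygenase between Tdo2 and Kynu, ran from -0.45 to 0.50 with SQ1 (median 0.07) and from -1.91 to -1.12 with pravastatin (median -1.55). Its SQ1 log2 ratio of 0.08 had a 95% interval of -0.12 to 0.28, and it fell 2.9-fold with pravastatin (adjusted p = 4.64e-10). A second Kmo probe gave 0.17 with SQ1 and -2.10 with pravastatin.

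Kynu had the smallest pravastatin response and the smallest spread between arrays. Its ratios lay between -0.01 and 0.21 over the SQ1 arrays (median 0.15) and between -0.97 and -0.69 over the pravastatin arrays (median -0.84). It rose 1.09-fold with SQ1 (log2 ratio 0.13 ± 0.03, adjusted p = 0.00528), with 7 of 8 arrays above the control, and fell 1.77-fold with pravastatin (log2 ratio -0.83 ± 0.03, adjusted p = 3.69e-12). A second Kynu probe gave 0.17 and -0.86. The dye effect of Kynu was -0.11, and with it left in 6 of 8 SQ1 arrays were above the control. The SQ1 rise did not pass with median centring in place of loess (adjusted p = 0.096), without a dye term (0.061), with slide as a random block (0.0604) or with scan day as one (0.198).

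The difference between the drugs was tested in the same fit. The SQ1 ratio was above the pravastatin ratio for all 9 genes, where 53.2% of all tested genes were called in this comparison, 29.3% higher and 23.9% lower. The difference ran from 0.96 ± 0.05 for Kynu (adjusted p = 5.07e-10) to 2.62 ± 0.34 for Tdo2 (adjusted p = 7.76e-06), with a median of 1.34. It was 2.42 ± 0.20 for Hgd and 1.25 ± 0.31 for Tat, which had the largest adjusted p of the 9 (0.00249). The arrays of the drugs did not overlap for 7 of the 9 genes, against 20.8% of all tested genes. Control cultures were probably shared and the doses could not be matched, so these are values of each drug at its own dose.

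The slides on which the arrays were hybridized split both drugs. Slide 1 held SQ1 replicates 1, 2, 5 and 6 and slide 2 SQ1 replicates 3, 4, 7 and 8, while slides 3 and 4 held the pravastatin replicates of the same numbers. Each slide held both dye orientations, and slide 3 was scanned on another day than the other slides. On slide 1 alone 7 of the 9 genes were lower than control and none higher, with a median log2 ratio of -0.68 (background 34.8% of genes called in either direction). On slide 2 alone Hpd was the 1 gene that was lower, at -0.54, while Fah, Kmo and Kynu were higher at 0.17, 0.32 and 0.17, with a median over the 9 genes of 0.059 (background 27%). Over all 15053 tested genes 2932 were lower and 2305 higher on slide 1, and 1947 lower and 2113 higher on slide 2. Tat, Gstz1 and Haao, which fell with SQ1 over all arrays, had log2 ratios of -1.24, -0.68 and -0.96 on slide 1 and of -0.19, -0.12 and -0.22 on slide 2, where none of the 3 passed. With pravastatin all 9 genes were lower on slide 3 and on slide 4, with medians of -2.38 and -1.44 (background 64.3% and 57.5%). Over all tested genes 5298 were lower and 4386 higher on slide 3, and 4580 lower and 4068 higher on slide 4. The 8 sterol-responsive genes passed upwards on slides 1, 2 and 4, and 4 of them on slide 3.

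**Figure D2:**
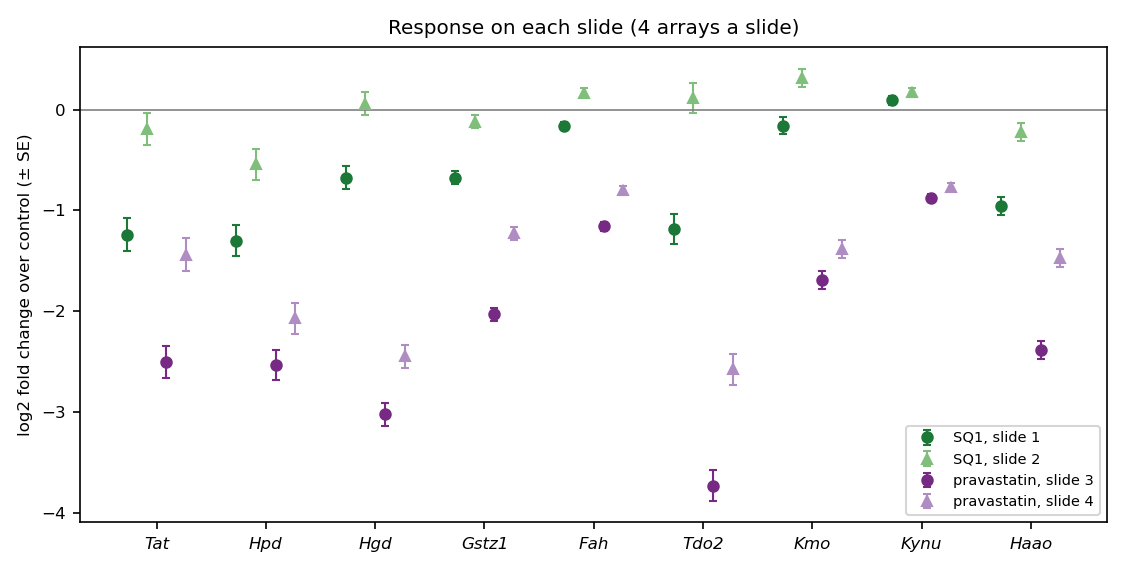
Log2 fold change over control with its standard error (y axis) for each gene on each slide, 4 arrays a slide, SQ1 in green and pravastatin in purple. For all 9 genes the slide 1 value lies below the slide 2 value and the slide 3 value below the slide 4 value, and slide 2 values lie between -0.54 and 0.32.

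The slide difference itself passed the test for 8 of the 9 genes with SQ1, all but Kynu, where 12.3% of tested genes passed in either direction. With pravastatin it passed for 6 of 9, all but Hpd, Kmo and Kynu, against 21.8% of tested genes. The 4 arrays of slide 1 lay wholly below the 4 of slide 2 for 8 genes, all but Kynu (background 20.2% of genes with separate arrays), and those of slide 3 wholly below those of slide 4 for 6 genes (background 23.2%). With slide as a random block the SQ1 falls of Tat and Gstz1 did not pass (adjusted p = 0.0596 and 0.057), and with median centring in place of loess those of Tat, Gstz1 and Haao did not (adjusted p = 0.121, 0.306 and 0.0776).

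The level of each channel showed where the slides differed. Levels here are log2 intensities after normalization, compared within a probe. The SQ1 channels differed between slide 1 and slide 2 by 0.01 for Tat, 0.56 for Haao, -0.33 for Tdo2 and 0.20 for Gstz1, while their control channels were higher on slide 1 by 1.06, 1.29, 0.97 and 0.76. The pravastatin channels differed between slide 3 and slide 4 by -0.07 for Tat, 0.40 for Haao, -0.36 for Tdo2 and 0.28 for Gstz1, while their control channels were higher on slide 3 by 0.99, 1.31, 0.79 and 1.08. For Hpd, Hgd and Fah the pravastatin channels were themselves higher on slide 3, by 0.70, 0.52 and 0.42, beside 1.17, 1.1 and 0.78 in their controls. Over the 9 genes the differences ran from -0.33 to 0.56 in SQ1 channels and from 0.03 to 1.29 in their controls, and from -0.36 to 0.70 in pravastatin channels and from 0.12 to 1.31 in their controls. The median slide difference of the 9 genes was 0.13 in SQ1 channels and 0.89 in their controls, and 0.33 in pravastatin channels and 0.99 in their controls. Over all tested genes these medians were between -0.031 and 0.0023. Kynu had control differences of 0.03 and 0.12. The SD over 8 arrays was smaller in the SQ1 channel than in the control channel for 8 of the genes (0.21 against 0.60 for Tat), with Kynu the exception (0.13 against 0.08). It was smaller in the pravastatin channel than in the control channel for all 9 (0.40 against 0.59 for Tat). Slide, scan day (for slide 3) and replicate set cannot be told apart, since no replicate number was on 2 slides of the same drug.

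**Figure D3:**
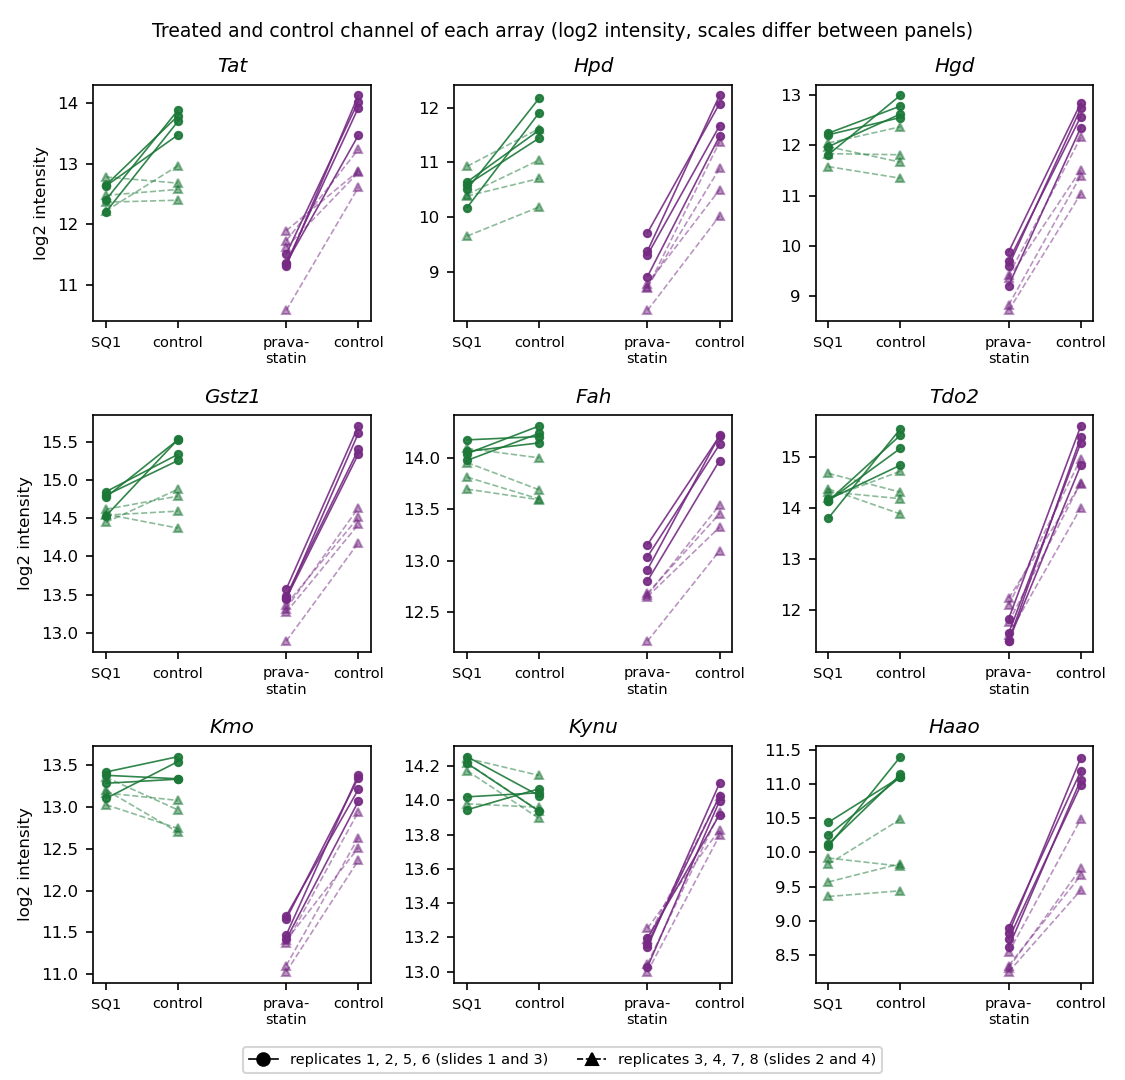
Log2 intensity (y axis, scales differ between panels) of the treated channel and the control channel of every array, joined by a line, for SQ1 in green and pravastatin in purple. Circles are replicates 1, 2, 5 and 6, and triangles replicates 3, 4, 7 and 8; control circles lie above most control triangles for all genes but Kynu.

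Markers of hepatocytes and of other liver cells were read on the same slides. For the 13 hepatocyte markers the median difference of slide 1 from slide 2 was -0.0069 in SQ1 channels and 0.45 in their controls, and that of slide 3 from slide 4 was -0.028 in pravastatin channels and 0.40 in their controls. The 14 Kupffer cell and leukocyte markers differed in treated and control channels alike, by 0.69 in SQ1 channels and 0.59 in their controls and by 0.59 in pravastatin channels and 0.63 in their controls. Other cell types did not share that difference. For stellate cell and fibroblast markers it was -0.27 in SQ1 channels and -0.18 in their controls, and -0.11 in pravastatin channels and -0.07 in their controls. For endothelial markers these values were 0.01, -0.003, 0.23 and -0.004, and for cholangiocyte markers 0.009, -0.14, 0.05 and -0.04, in that order. The part of these markers in the slide difference of the 9 genes was not tested.

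The other genes of aromatic amino acid metabolism were followed in a list of 24, all tested. With SQ1 5 of the 24 fell, 2 rose and 17 did not pass, with a median log2 ratio of -0.075. The share called, 29.2%, was near the 32.3% of all tested genes (16.5% lower and 15.8% higher). With pravastatin 18 fell, 5 rose and 1 did not pass, with a median of -0.53. The share called was 95.8%, against 66.7% of all tested genes (35.8% lower and 30.9% higher). The slides again differed with SQ1, with 13 lower and 1 higher on slide 1 and 2 lower and 8 higher on slide 2. Over all tested genes 34.8% were called on slide 1 (2932 lower and 2305 higher of 15053) and 27% on slide 2 (1947 lower and 2113 higher). Aldh8a1, an aldehyde dehydrogenase of the kynurenine route, had a log2 ratio of -0.13 with SQ1 (-0.65 on slide 1 and 0.39 on slide 2) and fell with pravastatin, at -3.19 ± 0.18. Gchfr, the feedback regulator of the enzyme that starts tetrahydrobiopterin synthesis, fell by 0.29 with SQ1 and fell by 1.90 with pravastatin.

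Further along the kynurenine route, Afmid (kynurenine formamidase) fell by 0.36 with SQ1 and fell by 1.14 with pravastatin. Qprt, which turns quinolinate into a precursor of NAD, had a log2 ratio of -0.13 with SQ1, which did not pass, and fell with pravastatin, at -1.05 ± 0.06. Ido2, a relative of Tdo2 that acts on the same substrate, fell by 1.30 with pravastatin. Ido1, the relative that is induced by interferon, had a log2 ratio of -0.05 with SQ1, which did not pass, and rose by 0.36 ± 0.05 with pravastatin. Slc7a5 and Slc3a2, the chains of a large neutral amino acid transporter at the cell surface, both rose with pravastatin. Slc7a5 fell with SQ1, at -0.28 ± 0.05, and rose by 0.60 ± 0.05 with pravastatin, and Slc3a2 rose by 0.55 ± 0.04 with pravastatin. Ddc, the aromatic amino acid decarboxylase, moved in opposite directions, up by 0.50 ± 0.09 with SQ1 (adjusted p = 0.000422) and down with pravastatin (log2 ratio -0.49 ± 0.09).

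The same comparison was made for other pathways of nitrogen handling. Of 39 tested genes that break down other amino acids, 12 fell and 5 rose with SQ1 (median -0.12), and 36 fell and 1 rose with pravastatin (median -1.03). The share called was 43.6% with SQ1 and 94.9% with pravastatin. Over all tested genes it was 32.3% with SQ1 (16.5% lower) and 66.7% with pravastatin (35.8% lower). On slide 1 alone 29 of the 39 were lower and 2 higher (background 34.8% called, 2932 lower and 2305 higher of 15053 genes). On slide 2 alone 4 of the 39 were lower and 11 higher (background 27% called, 1947 lower and 2113 higher). Bhmt, which remethylates homocysteine, fell by 3.98 with pravastatin, and Mat1a, which makes S-adenosylmethionine in the adult liver, fell by 1.25 with SQ1 and fell by 2.86 with pravastatin. Of 8 urea cycle and related genes 1, Otc (ornithine transcarbamylase), fell with SQ1, at -0.89, and all 8 fell with pravastatin (median -1.06), with log2 ratios of -3.25 for Otc and -3.79 for Arg1 (arginase). The median pravastatin ratio of the 9 aromatic genes, -1.93, was the lowest of these lists, and no test of that order was made.

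**Figure D4:**
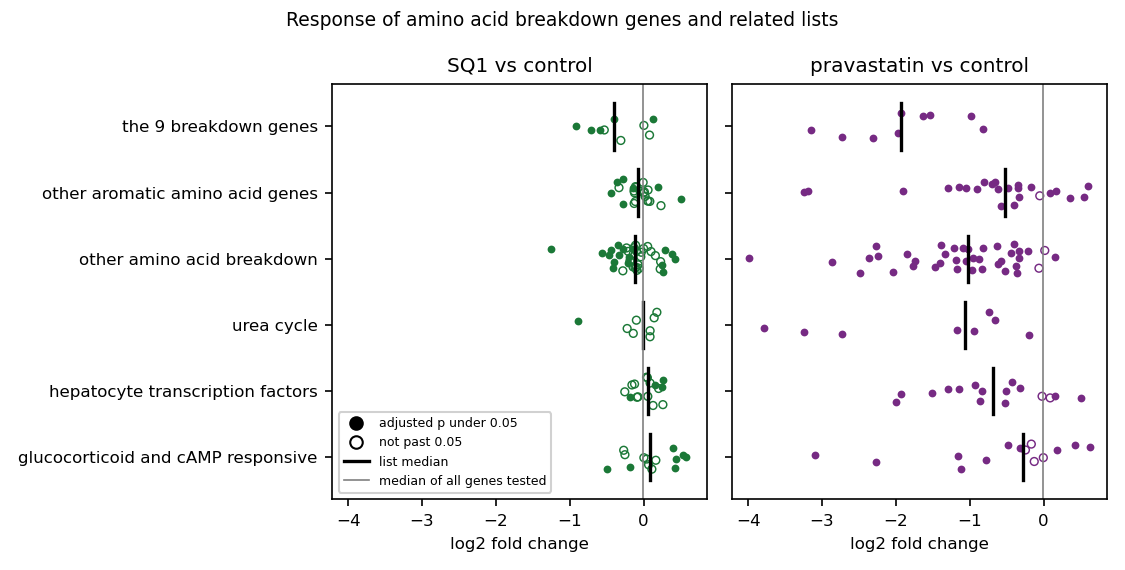
Log2 fold change (x axis) of every tested gene in 6 lists with SQ1 (left) and pravastatin (right). Filled points passed an adjusted p of 0.05, the black bar is the list's median and the grey line the median of all tested genes. With pravastatin the bar of the 9 genes lies at -1.93 and those of the other lists between -1.06 and -0.28.

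Lists of regulators and cell markers were read beside the 9 genes. Among these lists the share called with SQ1 ran from 25% (hepatocyte transcription factors, stellate cell and fibroblast markers) to 50%, around the 32.3% of all tested genes. With pravastatin it ran from 41.7% (stellate cell and fibroblast markers) to 100% (hepatocyte markers), against 66.7%. Of all tested genes 16.5% fell and 15.8% rose with SQ1, and 35.8% fell and 30.9% rose with pravastatin. Tat and Tdo2 are textbook targets of glucocorticoids, and of 14 glucocorticoid and cAMP responsive genes 2 fell and 5 rose with SQ1 (median 0.089), while 7 fell and 3 rose with pravastatin (median -0.28). Pck1 and G6pc, the gluconeogenic genes of that list, had log2 ratios of -3.10 and -2.27 with pravastatin. Of 16 hepatocyte transcription factor genes 1 fell and 3 rose with SQ1, and 12 fell and 2 rose with pravastatin, among them Nr1i3 (the constitutive androstane receptor), which fell by 1.93, and Hnf4a, which fell by 1.30. Hepatocyte markers fell with SQ1 in 5 of 13 cases, with log2 ratios of -1.23 to 0.23 and a median of -0.11, and with pravastatin in 13 of 13 cases, with ratios of -4.58 to -0.32 and a median of -1.30. Of these 13 markers, Hnf4a is also in the transcription factor list, and Cps1 and Ass1 are also in the urea cycle list. Of the 14 Kupffer cell and leukocyte markers 6 fell and 1 rose with SQ1 (ratios -0.79 to 0.26), and 10 fell and 1 rose with pravastatin (ratios -1.08 to 0.92). Of 12 stellate cell and fibroblast markers 1 fell and 2 rose with SQ1 and 4 fell and 1 rose with pravastatin. Endothelial markers numbered 0 lower and 4 higher of 8 with SQ1 and 4 lower and 3 higher with pravastatin, and cholangiocyte markers 3 lower and 0 higher of 7 with SQ1 and 3 lower and 1 higher with pravastatin. The part of these markers in the falls of the 9 genes was not tested.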

How the data were processed

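Hepatocyte RNA was measured on 16 2-colour Agilent arrays. The deposited scanner files hold median spot and local background intensity values, not normalized, and the authors' processed intensity values, which Agilent Feature Extraction 11.0.1.1 had background-subtracted and dye-normalized per the file headers, and their log10 red over green ratio, as the deposited columns are named. In the deposited series table the log2 values run treated over control, found by setting it against the scanner ratios: slopes were 3.31 to 3.32, as log2 against log10 gives, correlations 0.743 to 0.999 and array medians -0.068 to 0.140. Its centring is not stated.

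In R 4.3.3, limma 3.58.1 was used for normexp background correction with an offset of 50, loess within each array, and averaging of the spots of a probe. The plan had named spot signal without saying mean or median, and the medians were used. RefSeq accessions named 27234 of 39429 probes and left 12195 unnamed. A probe was tested if well above background on at least 4 treated arrays of a drug or 8 control channels and if at least 7 arrays of each drug gave a ratio. The probe of highest mean intensity represented a gene. All 9 genes were well above background in every channel and no spot of theirs was saturated, so no value is a bound. Array number limits the precision. Standard errors of the 9 genes were 0.03 to 0.24 per drug and 0.05 to 0.34 for the difference, and their medians over all 15053 tested genes were 0.04 and 0.056.

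The log2 ratios of all 16 arrays were fitted together (lmFit, eBayes) with a coefficient per drug signed by dye orientation and a constant dye term, which left 13 residual degrees of freedom. Tests were two-sided. Per-array values have the dye effect removed. A fit with drug by slide coefficients gave the slide values. The fit was tested on simulated data with noise drawn independently for each array. The real arrays had a correlation of 0.27 within a slide and 0.47 within a replicate number. The simulation did not hold this shared spread, so it cannot show how the fit behaves under it. Same-numbered SQ1 and pravastatin arrays deviated together (correlations of 0.221 to 0.718 in 8 pairs), and 3 of 8 arrays correlated best with their own number. The reported fit takes no pairing, and a fit with the replicate number as a random block is among the alternatives. Alternatives are given in the closing section.

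The 9 genes, the lists and the tests were chosen with earlier results of these data known. All 9 genes were named with their values. Of the other aromatic genes any called with a drug could be named. Of 4 further lists up to 4 genes with the largest ratios among those called could be named, besides the 5 genes nearest to the 9. Some genes that the rule allowed are not reported here. Promoter windows are from RefSeq, GRCm38.p6, matched by gene symbol or ID.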

Additional observations from a re-analysis of the deposited data

Results flagged for a closer look

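All results singled out here are differences between the slides of a drug, each tested in the fit with drug by slide coefficients and adjusted over all genes tested. With SQ1, slide 1 minus slide 2 gave log2 differences of -1.30 for Tdo2 (adjusted p = 0.00199), -1.05 for Tat (0.00961), -0.76 for Hpd (0.033), -0.74 for Haao (0.00244), -0.74 for Hgd (0.00994), -0.56 for Gstz1 (0.00199), -0.48 for Kmo (0.0241) and -0.33 for Fah (0.00372). With pravastatin, slide 3 minus slide 4 gave -1.15 for Tdo2 (adjusted p = 0.00156), -1.06 for Tat (0.00408), -0.91 for Haao (0.000255), -0.80 for Gstz1 (6.45e-05), -0.58 for Hgd (0.0189) and -0.36 for Fah (0.000874). All 14 differences were negative. A search for single arrays far from the rest of their drug took each gene with each drug as a group. It found none in 18 groups of 8 arrays, where chance alone marks about 1 group in 20. In most groups the arrays of the slides did not overlap, which widens the spread that a single array is measured against. The search therefore cannot tell whether a single array stood apart. It also took genes singly, while SQ1 replicate 1 was the lowest SQ1 array for every gene searched but Tat.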

How the results depend on the processing

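All pravastatin calls and all calls of the difference between the drugs were kept for the 9 genes under each of the alternatives run, and Hpd kept its SQ1 call in all of them. The count of genes called lower with SQ1, 4 of 9, was less steady. It was 1 with median centring, 2 with slide as a random block and 2 at an adjusted p of 0.01. It was 7 on slide 1 alone and 1 on slide 2 alone. With a replicate left out it was between 2 and 4, lowest without SQ1 replicate 1 or 5. Over all 15053 tested genes, 2490 were called lower with SQ1 in the reported fit. That number was 598 with median centring, 1321 with slide as a block, 1575 at 0.01, 2932 on slide 1 and 1947 on slide 2. It was 2199 without SQ1 replicate 1 and 2185 without SQ1 replicate 5. Less the median of all genes, the SQ1 ratios of Tat, Gstz1 and Haao were -0.72, -0.40 and -0.59 with loess. With median centring they were -0.67, -0.33 and -0.56. The count called higher, 1 of 9, was 0 with median centring, without a dye term, with slide or scan day as a block and on slide 1 alone, and 3 on slide 2 alone. Over all tested genes 2375 were called higher with SQ1 in the reported fit, 1478 with median centring and 2058 without a dye term. The number was 1224 with slide and 990 with scan day as a block, 2305 on slide 1 and 2113 on slide 2. Fah, which was not called with SQ1 over all arrays, was lower on slide 1 alone, at -0.16 (adjusted p = 0.00793). On slide 2 alone it was higher, at 0.17 (adjusted p = 0.00871). The cause of these changes was not tested.

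Over all genes, 4865 were called with SQ1 and 8004 for the difference. SQ1 calls numbered 2076 with median centring, 2545 with slide as a block, 2236 with scan day as a block and 3117 at an adjusted p of 0.01, and calls of the difference 3696 with median centring. Calls were higher in 71.2% with median centring against 48.8% with loess for SQ1, and in 61.0% against 46.3% for pravastatin. With Agilent's processed signals they were higher in 56.8% for pravastatin and 44.7% (55.1% with loess) for the difference. With the replicate block, which pairs same-numbered arrays, the counts were 4726, 9867 and 9629 for SQ1, pravastatin and the difference, and no call of the 9 genes changed. Dose, slide and shared controls limit what the drug difference says, and 8 arrays a drug limit the small SQ1 ratios.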

Other observations

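The 5 genes outside the aromatic lists whose ratios over the 16 arrays lay nearest to the per-array median of the 9 genes were Aldh6a1, Tmem25, Acat1, Apol7a and Gnmt. Their root mean square distances were 0.128 to 0.165 on the log2 scale, where the median of 14934 genes was 1.39. Aldh6a1, the methylmalonate semialdehyde dehydrogenase of valine breakdown, had a log2 ratio of -0.32 with SQ1 and -1.89 with pravastatin. Acat1, the mitochondrial acetoacetyl-CoA thiolase of isoleucine breakdown, had -0.27 and -1.82, and Gnmt, the glycine N-methyltransferase of liver, had -0.42 and -1.77. These genes were chosen for their likeness, so the values are a description without a test.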
